A study of Mus musculus with 26 samples.

Results

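The genomic regions bound by the CTCF protein were set against the regions of open chromatin in mouse embryonic stem cells, using the libraries made with standard Nextera adaptors and without bisulfite conversion. The CTCF-ChIP libraries (2 samples) came from chromatin immunoprecipitation with an antibody against CTCF (Millipore 07-729), and the ATAC libraries (2 samples) from transposition of nuclei of 50000 cells. All 4 samples were KH2 embryonic stem cells grown with LIF on irradiated feeder cells, which were depleted by pre-plating before use, and the labels name no other treatment than the Nextera adaptors. The peak list of each sample was reduced to distinct regions, and a region was kept when it overlapped a region of the other replicate. Kept regions of both replicates were merged into loci, which gave 39046 CTCF loci and 20375 ATAC loci, together 59421 members beside 436658 distinct regions in all 14 sample lists of the series. A CTCF locus that shared at least 1 bp with an ATAC locus was called CTCF with ATAC, and the reverse comparison sorted ATAC loci into those with and without CTCF.

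CTCF is a zinc finger protein that reads a long DNA motif and halts cohesin, the ring complex that extrudes chromatin loops, so that many of its sites lie at loop anchors and domain boundaries. ATAC-seq uses the Tn5 transposase to insert adaptors where DNA is accessible, and its signal gathers at active promoters, enhancers and sites of factors that displace nucleosomes. CTCF sites with cytosine methylation in the motif are often left unbound, which is why occupancy, accessibility and methylation are studied together in these cells.

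The recognition sequences under some of the strongest CTCF loci are printed here because the comparison turns on where this motif sits. Each run is 29 bases of the mouse reference GRCm38 (mm10), read 5′ to 3′ on the strand of the motif, with the 19-base best match to the CTCF motif (MA0139.1) in capitals and 5 flanking bases on each side in lower case. The coordinates are those of the capitals. Med4, Adck5, Ccr1 and Mrc1 name CTCF loci that overlapped ATAC. Rapgef1, Olfr655 and Gm24187 name CTCF loci that did not, and Klf4 and Slc5a8 are loci that the study displayed.
Med4 (chr14:73509894-73509912, + strand): tccttTGCCCTGTAGATGGCGCTAgaact
Adck5 (chr15:76576296-76576314, + strand): ccgggCGACCTCAAGGGGCCGCTGcacgc
Ccr1 (chr9:123925440-123925458, + strand): ctcggTCACCACCGGGTGGCGGCAgagag
Mrc1 (chr2:14295607-14295625, - strand): gcatcCAGCCAGCAGAGGGCAGTAccggg
Rapgef1 (chr2:29619636-29619654, + strand): actccAAGCCGGTAGAGGGCGCTGcgcct
Olfr655 (chr7:104603370-104603388, - strand): agttaAGGCCAGAAGATGGCGCCAgatca
Gm24187 (chr13:9847004-9847022, - strand): ccgcaTGACCACCAGAGGACACTGtgtga
Klf4 (chr4:55530446-55530464, - strand): agcctCAGCCGCCAGGTGGCGGGCtgatg
Slc5a8 (chr10:88885025-88885043, - strand): agtggAGGCCAGAAGGGGGCATCAgattg

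The CTCF-ChIP lists held 40046 and 49633 distinct regions in replicates 1 and 2, of which 39189 and 39065 were kept. The ATAC lists held 24113 and 30666, of which 20623 and 20532 were kept. As a share, 97.9% of CTCF-ChIP replicate 1 and 78.7% of replicate 2 were kept, against 85.5% and 66.95% for ATAC. Dropped regions were weak: their median fold enrichment was 4.85 and 6.05 in the CTCF-ChIP samples and 4.38 and 4.55 in the ATAC samples, below the medians of 10.2, 13.5, 5.82 and 6.30 among kept regions. The lists hold no read counts, so sequencing depth is not given by the data used here, and nothing in the labels says whether replicates were separate cultures. The p-values below therefore measure only the spread between samples, which may be technical. Regions with and without overlap came from the same 2 libraries. The exact permutation test, two-sided, treated the 4 values as separate and cannot go below p = 0.333 (paired within a library, an exact sign-flip test of 2 pairs cannot go below p = 0.5), so no difference could pass a threshold of 0.05.

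The cells carried the transcripts of embryonic stem cells. In the authors' merged RNA-seq of these cells, given as TPM (transcript abundance scaled to a fixed total) with no replicates, all 8 stem cell markers were at 1 TPM or more, from 132 TPM for Fgf4 to 5394 TPM for Dppa5a, and summed to 8588 TPM. Of 10 fibroblast markers that feeder cells would bring, 9 were at 1 TPM or more and the list summed to 995 TPM, most of it from Fn1 at 612 TPM and Vim at 176 TPM. Of 8 markers of differentiated cells, 5 were at 1 TPM or more and the list summed to 114 TPM. These were Krt8 at 47.0, Gata4 at 33.5, Gata6 at 18.2, Sox17 at 9.09 and Pax6 at 5.10 TPM. No marker of these lists was at 0. The other fibroblast markers were Acta2 at 85.3, Col1a1 at 48.7, Col1a2 at 30.2, Thy1 at 20.2, Col3a1 at 11.3, Postn at 9.35, Dcn at 1.92 and Lum at 0.08 TPM. The part of feeder cells in the regions was not tested.

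Few CTCF-bound loci lay in called open chromatin. Of the 39046 CTCF loci, 2547 overlapped an ATAC locus, which is 6.52%, and 36499 did not. Of the 20375 ATAC loci, 2498 overlapped a CTCF locus, which is 12.3%, and 17877 did not. By sample, 6.44% and 6.51% of the kept CTCF regions overlapped an ATAC locus in replicates 1 and 2, and 11.5% and 11.9% of the kept ATAC regions overlapped a CTCF locus. The samples of each assay lay close together, with a mean of 6.48% ± 0.054 (SD, n = 2) for CTCF and 11.7% ± 0.277 (SD, n = 2) for ATAC. The larger list called on the merged M-ATAC reads overlapped 22.4% of CTCF regions, and without ATAC replicate 1 the share was 10.2%, so that it moved with the list used. The part of the sensitivity of the ATAC lists was not tested. Whether these shares lie above or below those of regions placed at random was also not tested.

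Most CTCF regions were without ATAC overlap in every pairing of replicates. Taking kept regions of 1 CTCF-ChIP and 1 ATAC sample at a time, the overlapping share of CTCF regions was between 5.97% and 6.33% in the 4 pairings. With every distinct region of each list, kept or not, it was between 7.24% and 9.99%. Chromosomes varied within a narrow band: the share of CTCF loci with ATAC ran from 4.38% on chromosome 5 to 8.22% on chromosome 3, with a median of 6.61% over 20 chromosomes. The share of ATAC loci with CTCF ran from 7.32% on chromosome X to 16.4% on chromosome 19. CTCF loci covered 14518 kb and ATAC loci 12091 kb, and the stretches in both added up to 715 kb, which is 4.93% of the CTCF length and 5.91% of the ATAC length.

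Where the 2 kinds of locus met, they met broadly. The median overlap was 269 bp and covered 71.1% of the CTCF locus, and 542 of the 2547 CTCF loci (21.3%) lay wholly inside an ATAC locus. In 50 ATAC loci there were 2 CTCF loci, the most in any. The limit of 1 bp decided few members. Only 39 CTCF loci overlapped ATAC by 1 to 50 bp, with median fold enrichment of 7.73 and 10.8 in replicates 1 and 2, and 33 missed it by a gap of up to 50 bp, with medians of 7.40 and 11.02. In contrast, 28307 CTCF loci (72.5%) were more than 10000 bp from the nearest ATAC locus.

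CTCF loci with and without ATAC differed in where they lay. Near promoters, defined as within 3 kb of a transcription start, were 66.03% of the CTCF regions with ATAC in replicate 1 and 66.2% in replicate 2, against 26.7% and 26.6% of those without. The difference was 39.5 ± 0.179 percentage points (SD, n = 2), the classes did not overlap, and the exact permutation test gave p = 0.333. With the merged M-ATAC list in place of the ATAC loci it was 21.1 percentage points (45.6% against 24.5%), and with 50% reciprocal overlap 26.5. Introns held 12.1% and 12.0% of the regions with ATAC but 35.0% and 35.0% of those without. Intergenic DNA held 19.7% and 19.6% of regions with ATAC and 35.2% and 35.3% of those without. Exons took 2.14% and 2.12% against 3.10% and 3.13%. All 20 chromosomes gave more promoter loci among CTCF with ATAC, by 31.9 to 54.4 percentage points. Among the promoter loci, those with ATAC lay closer to a start, at a median of 189 bp against 1243 bp without. The near-start comparisons of CTCF below are therefore not matched for distance.

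**Figure D1:**
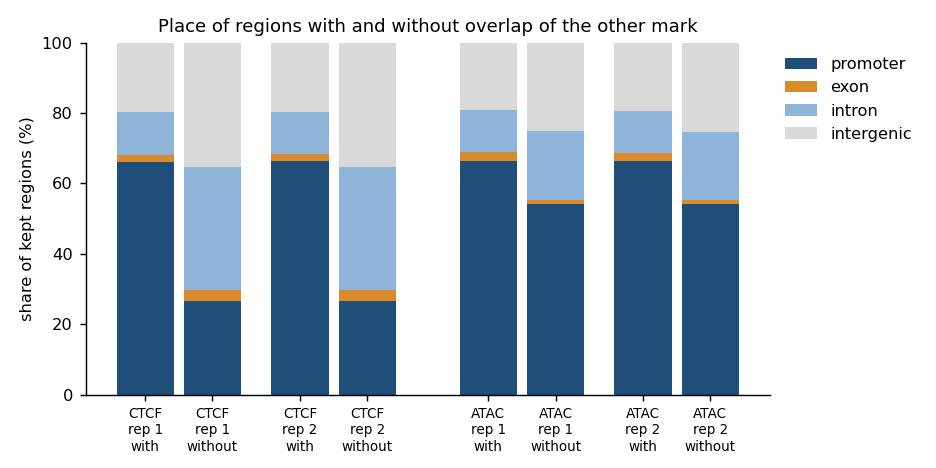
Stacked bars give the share of kept regions (%) by place, promoter meaning within 3 kb of a transcription start, for each CTCF-ChIP and ATAC replicate, with or without overlap of the other assay. The promoter part is between 66.03% and 66.46% in the 4 bars of overlapping regions, at most 26.7% for CTCF without ATAC and at most 54.2% for ATAC without CTCF.

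ATAC loci were promoter-rich in either class. In replicates 1 and 2, 66.5% and 66.4% of ATAC regions with CTCF were near a start, against 54.2% and 54.1% of those without, a difference of 12.2 ± 0.031 percentage points (SD, n = 2, p = 0.333, exact permutation test). It was 7.25 points without ATAC replicate 1 and 7.03 with 50% reciprocal overlap. Introns and intergenic DNA made up the balance, with introns at 11.9% and 11.9% of ATAC regions with CTCF and 19.4% and 19.4% of those without. The direction was the same on all 20 chromosomes, from 5.44 to 21.7 percentage points.

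CTCF regions in open chromatin had higher fold enrichment, column 7 of the lists, which is the read pileup at the summit over the local background. The median was 11.4 with ATAC and 10.1 without in replicate 1, and 15.1 with and 13.4 without in replicate 2. The difference of 1.49 ± 0.271 (SD, n = 2) had the same direction in 2 of 2 samples, yet the samples differed more from each other than the classes did, and the exact permutation test gave p = 0.667. On all 20 chromosomes the medians were higher with ATAC, by 0.262 to 2.99 in replicate 1 and by 0.629 to 3.85 in replicate 2. The gap was alike near and away from promoters: 11.3 against 10.05 near starts and 11.7 against 10.2 farther away in replicate 1, and 15.0 against 13.2 and 15.2 against 13.5 in replicate 2.

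The ATAC fold enrichment was slightly lower with CTCF, by an amount that depended on how overlap was counted. The medians were 5.63 with CTCF and 5.85 without in replicate 1, and 6.07 and 6.34 in replicate 2, a difference of -0.246 ± 0.0345 (SD, n = 2, p = 0.667, exact permutation test). It was -0.0185 when overlap was counted by summit and -0.109 without CTCF-ChIP replicate 1. The gap was wider away from promoters. Near starts, medians were 5.78 with and 5.84 without CTCF in replicate 1, and 6.24 and 6.29 in replicate 2. Farther away they were 5.32 against 5.88, and 5.77 against 6.42. Chromosome X went the other way, with ATAC regions 0.991 higher with CTCF in replicate 1 and 0.289 higher in replicate 2. It had 560 ATAC loci, of which only 7.32% overlapped CTCF, so its median with CTCF rested on few loci. The chromosomes whose median was higher with CTCF numbered 1 of 20 in replicate 1 and 2 of 20 in replicate 2.

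**Figure D2:**
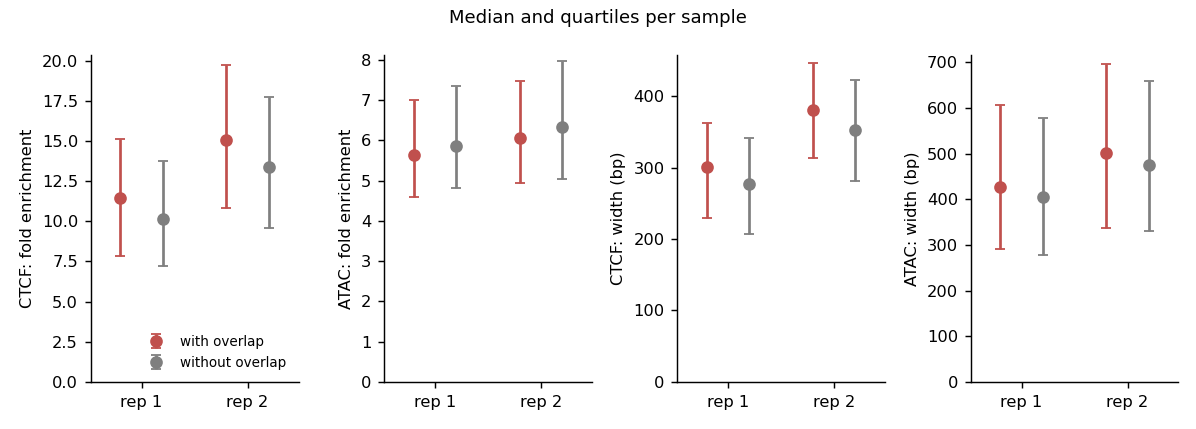
Points are the medians and bars the quartiles of fold enrichment and of width (bp) over kept regions, for each replicate of CTCF-ChIP and ATAC, with (red) and without (grey) overlap of the other assay. For CTCF, fold enrichment and width lie higher with overlap in each replicate. For ATAC, fold enrichment lies lower and width higher, and all quartile bars overlap.

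Regions with overlap were also wider. A wider region meets the 1 bp rule more easily, and the part of this rule in the widths and summit counts was not tested. CTCF regions with ATAC had a median width of 301 bp in replicate 1 and 380 bp in replicate 2, against 277 and 353 bp without, a difference of 25.5 ± 2.12 bp (SD, n = 2, p = 0.667, exact permutation test). ATAC regions with CTCF measured 427 and 501 bp, against 406 and 476 bp without, a difference of 23.0 ± 2.83 bp (SD, n = 2, p = 0.667, exact permutation test). When each region had to share 50% of its length with the other, the ATAC difference turned to -56.5 bp. It also turned when all regions of ATAC replicate 2 alone were used (-16.0 bp) or of ATAC replicate 1 alone (-2.5 bp). Split by place, ATAC regions near starts were wider with CTCF (473 against 453 bp and 553 against 529 bp), whereas those farther away were narrower (346 against 360 bp and 391 against 420 bp). Several summits within a region were more frequent with overlap, at 6.58% against 3.95% and 9.82% against 5.79% for CTCF, and at 21.6% against 17.8% and 29.3% against 24.8% for ATAC.

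The share of CTCF regions that were open was larger at higher enrichment. In CTCF-ChIP replicate 1, 5.38% of the lowest decile by fold enrichment (median fold 4.75) overlapped ATAC, against 9.54% of the highest (median fold 19.5). In replicate 2 the shares were 4.61% and 10.2%. Near promoters the share went from 11.2% to 19.1% in replicate 1 and from 10.1% to 21.5% in replicate 2, and away from promoters from 2.66% to 5.03% and from 2.12% to 5.29%. Promoters were no more common in the highest decile (32.0% and 30.3%) than in the lowest (31.9% and 31.3%). The larger merged M-ATAC list overlapped 13.8% and 12.6% of the lowest decile and 37.1% and 35.6% of the highest, in replicates 1 and 2. 

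For ATAC regions the relation ran downward. The share with CTCF was 12.6% and 13.0% in the lowest decile by ATAC fold enrichment, in replicates 1 and 2, and 9.21% and 9.10% in the highest. The fall lay away from promoters, from 12.1% to 6.08% in replicate 1 and from 12.2% to 5.06% in replicate 2. Near promoters the shares stayed between 11.7% and 16.0% over all deciles of both replicates.

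**Figure D3:**
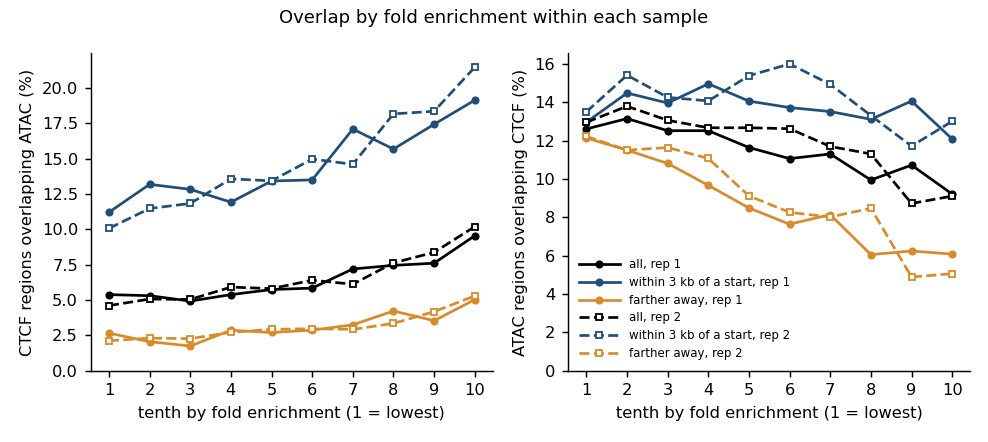
The overlapping share (%) is plotted for each decile of fold enrichment, 1 being the lowest, for CTCF regions (left) and ATAC regions (right), over all regions and separately within 3 kb of a start and farther away; solid lines are replicate 1 and dashed lines replicate 2. CTCF lines climb, from 5.38% to 9.54% and from 4.61% to 10.2% over all regions, while ATAC lines away from starts descend.

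The recognition motif was present in most CTCF regions and was somewhat less frequent in open ones. A match was counted in the 200 bp around the highest summit, on either strand, when it scored above the lowest 5% of the authors' own 43074 matches. Such a match lay in 82.4% and 83.1% of CTCF regions with ATAC in replicates 1 and 2, and in 93.3% and 93.9% of those without, a difference of -10.8 ± 0.0248 percentage points (SD, n = 2). As a background, the same search found a match in 13.4% of windows at transcription starts and in 10.7% of windows 5000 bp downstream of CTCF summits. Matches in open regions were also weaker: the median score, a summed log2 ratio to even base composition, was 15.1 and 15.1 with ATAC against 17.9 and 17.9 without. The scores rest on the authors' matches in merged CTCF M-ChIP regions of the same cells. Those regions overlapped 2282 CTCF loci with ATAC and 32421 without, and the effect of this on the scores was not tested. Near starts the motif was found in 80.01% and 80.7% of CTCF regions with ATAC and 91.7% and 92.6% without, and farther away in 87.2% and 87.8% against 93.8% and 94.4%.

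Among ATAC regions, the motif followed the CTCF class. It lay in 43.2% and 45.4% of ATAC summit windows with CTCF and in 13.1% and 13.5% of those without, the latter at the level of all transcription starts (13.4%). An ATAC summit need not sit on the motif, so this share is lower than at CTCF summits.

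Base composition also differed. The median GC content of the 200-bp window was 57.0% and 57.5% at CTCF regions with ATAC, and 48.0% in both replicates at those without. CpG dinucleotides averaged 10.3 and 10.3 per window with ATAC and 3.005 and 2.997 without. Near starts the means were 12.8 and 12.7 against 4.10 and 4.12, and farther away 5.60 and 5.63 against 2.61 and 2.59, so that CTCF regions with ATAC were richer in CpG in either place. Near starts the classes were not matched for distance to the start. Open ATAC regions with CTCF had 12.2 and 12.3 CpG per window, against 9.05 and 9.09 without.

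ATAC summits lay more often on the downstream side of the motif. For CTCF loci with a motif and an ATAC overlap, the nearest ATAC summit lay within 500 bp of the motif centre at 1945 loci in ATAC replicate 1 and 1916 in replicate 2, at a median distance of 110 bp and 101 bp. Read on the strand of the motif, the summit was downstream of the centre at 1108 loci and upstream at 833 in replicate 1, or 57.1% downstream (95% Wilson interval 54.9 to 59.3%, counting error only). In replicate 2 it was downstream at 1100 and upstream at 811, or 57.6% (55.3 to 59.8%). Near promoters the share was 58.5% and 58.8%, and farther away 54.6% and 55.5%. In the 200-bp windows of ATAC loci that held a motif but no CTCF locus, the summit was downstream at 1201 and upstream at 1196 loci, or 50.1% (48.1 to 52.1%) downstream, against 607 and 503, or 54.7% (51.7 to 57.6%), with CTCF. Loci whose summit fell on the motif centre are left out of these shares. The CTCF summit itself sat on the motif in either class, with a median distance of 19 and 17 bp with ATAC and 18 and 16 bp without.

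**Figure D4:**
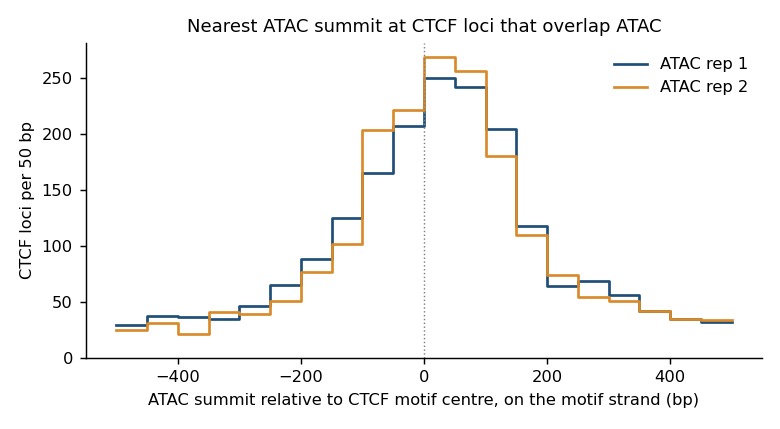
The number of CTCF loci per 50 bp is plotted against the position of the nearest ATAC summit relative to the motif centre (bp, positive being downstream on the motif strand), for ATAC replicates 1 and 2. Both lines peak just downstream of the centre, with 250 and 269 loci in the first 50 bp downstream and 207 and 221 in the 50 bp upstream.

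Motifs of CTCF loci in open chromatin were almost free of methylation. The readout was independent of the choice of classes: methylated and unmethylated reads of cytosines in CTCF motifs, from the merged CTCF M-ChIP libraries, in which CTCF-bound DNA was bisulfite-converted. A motif enters this table through a called merged region and a cytosine in it, which 1400 loci with and 12530 loci without ATAC had at the coverage asked. Over 5161 cytosines covered by at least 5 reads in CTCF loci with ATAC, 786 of 58729 reads were methylated, which is 1.34% (1.25 to 1.43%, 95% Wilson interval over reads). Over 28201 cytosines in CTCF loci without ATAC, 37586 of 322278 reads were methylated, which is 11.7% (11.6 to 11.8%). Median coverage was 10 reads in each class. The merged table has no replicates, so these intervals cover counting error only. Reads were counted at each cytosine, so a read over several cytosines entered more than once. The intervals treat these counts as separate and may be too narrow. On each of the 20 chromosomes motifs without ATAC were more methylated, by 8.04 to 14.2 percentage points.

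The gap was present in either place, though near starts the loci with ATAC lay closer to a start than those without. Near starts 0.844% of reads were methylated in loci with ATAC (3873 cytosines) and 8.46% in those without (9278 cytosines). Farther away the values were 2.70% (1288 cytosines) and 13.3% (18923 cytosines). Cytosines methylated in more than 80% of reads numbered 2 of 5161 with ATAC and 685 of 28201 without.

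The split between loci with and without ATAC recurred in libraries that had no part in it. In the 4 M-ATAC lists, made by ATAC-seq with methylated adaptors and bisulfite conversion, 65.0%, 68.4%, 68.7% and 66.4% of CTCF loci with ATAC were called in replicates 1 to 4, and 3.74%, 4.28%, 3.53% and 3.05% of those without. In the M-ATAC-NC lists, the same adaptors without conversion, the shares were 81.3% and 85.8% with and 4.13% and 5.40% without. The CTCF lists showed no such gap. CTCF M-ChIP replicates 1 and 2 called 81.9% and 65.5% of CTCF loci with ATAC and 78.0% and 67.5% of those without, and their unconverted counterparts 64.0% and 74.2% against 54.2% and 73.0%. The list called on the merged M-ATAC reads was larger and held 93.1% of CTCF loci with ATAC and 17.6% of those without.

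**Figure D5:**
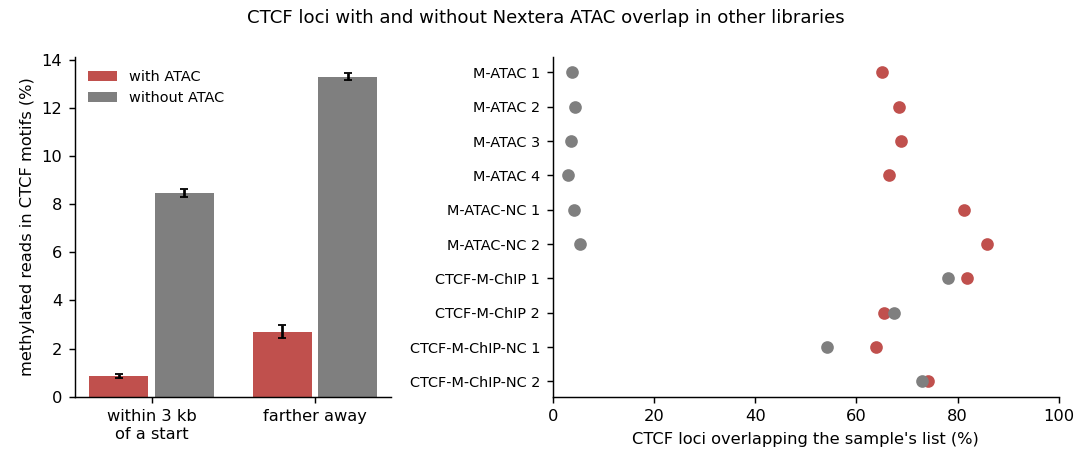
Left, share of methylated reads (%) in CTCF motifs of the merged CTCF M-ChIP libraries, by place and ATAC class, with 95% Wilson intervals over reads counted at each cytosine. Right, share (%) of CTCF loci with (red) and without (grey) Nextera ATAC overlap that each other sample's list called; the 6 M-ATAC and M-ATAC-NC samples set the classes far apart, whereas the 4 CTCF samples place them close together.

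Nearest genes of CTCF loci with ATAC were expressed at higher levels. The nearest gene was taken by transcription start, each gene counted once, and its TPM read from the merged RNA-seq. The median was 6.08 TPM over 2391 genes near CTCF loci with ATAC, and 0.25 TPM over 18586 genes near those without. On log2(TPM + 1) medians the difference was 2.51, and it was positive on all 20 chromosomes, from 1.19 to 3.19. The gap was found near promoters: 10.2 TPM over 1645 genes with ATAC against 1.17 TPM over 7842 genes without. Loci farther away gave 0.17 TPM over 807 genes and 0.19 TPM over 14480 genes. Near promoters the CTCF loci with ATAC lay closer to a start (median 189 bp against 1243 bp), and the part of this distance was not tested. Among genes of at least 1 TPM the log2 difference shrank to 0.13. For ATAC loci the medians were 6.46 TPM with CTCF (2390 genes) and 3.84 TPM without (12957 genes), but near promoters 10.99 TPM with (1645 genes) and 12.2 TPM without (8835 genes), so that the direction turned.

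Gene by gene, an ATAC locus near a start also went with higher expression. Among 21607 protein-coding genes with a TPM, 47.8% had an ATAC locus within 3 kb of a start, 32.0% had a CTCF locus, 19.5% had both and 7.75% had loci of both kinds that overlapped. The median was 16.3 TPM for genes with both, 15.6 TPM with ATAC only, 1.41 TPM with CTCF only and 0.02 TPM with neither. Genes with both, whose loci need not overlap, were thus slightly higher than those with ATAC only. ATAC loci near promoters had the reverse order. ATAC shares climbed with expression, from 5.01% of genes at 0 TPM through 58.3% at 1 to 10 TPM to 81.7% at 100 TPM or more. CTCF shares went from 8.43% at 0 TPM to 41.6% at 1 to 10 TPM and stayed there, at 40.8% for genes at 100 TPM or more. Of genes with an ATAC locus, the part with an overlapping CTCF locus changed little, from 17.5% at 0 TPM to 14.9% at 100 TPM or more.

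Pluripotency factors, the transcription factors that keep these cells undifferentiated, mostly had an ATAC locus near a start. Of 18 genes, 6 had both kinds of locus within 3 kb of a start, 9 ATAC only, 1 CTCF only and 2 neither. With ATAC in 15 of 18 they stood above the 47.8% of protein-coding genes, and with CTCF in 7 of 18 near its 32.0%. All 18 were at 18.6 TPM or more. Of protein-coding genes at 10 to 100 TPM 77.8% had ATAC, and of those at 100 TPM or more 81.7%, so the ATAC share was near that of genes so expressed. In only 1 of them, Tbx3 (82.1 TPM), did the loci overlap, with CTCF fold enrichment of 8.95 and 18.0 and ATAC of 5.23 and 7.71 in replicates 1 and 2. As a share that is 5.56%, near the 7.75% of protein-coding genes.

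Distances given here run from the midpoint of a locus to the nearest transcription start of any gene. At Klf4 and Klf5 the CTCF and ATAC distances are therefore from different starts. At Klf4, which encodes a zinc finger factor used in reprogramming (270 TPM), a CTCF locus (fold 7.89 and 12.7) lay 1325 bp from a start. An ATAC locus (4.16 and 4.53) lay 204 bp from another start, without overlap. Sox2 (477 TPM) likewise had CTCF at 2607 bp (9.84 and 15.1) and ATAC at 422 bp (3.59 and 4.52). At Lin28a, an RNA-binding regulator (133 TPM), the distances were 947 bp for CTCF (14.5 and 15.2) and 367 bp for ATAC (4.73 and 4.56). Klf5 (96.8 TPM) had CTCF at 2558 bp (8.30 and 10.9) and ATAC at 84 bp (7.995 and 8.72), and Stat3 (35.7 TPM), the effector of LIF, had CTCF (21.5 and 25.6) and ATAC (7.41 and 7.66) at different starts of the gene.

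ATAC alone marked Pou5f1 (657 TPM; fold 3.79 and 3.01), Esrrb (296 TPM; 6.37 and 4.67), Zfp42 (229 TPM; 9.29 and 9.43), Utf1 (331 TPM; 5.27 and 6.61), Klf2 (143 TPM; 4.46 and 5.49), Dppa4 (150 TPM; 3.87 and 4.69), Tfcp2l1 (95.1 TPM; 4.14 and 3.95), Dppa3 (44.2 TPM; 4.63 and 7.81) and Nr5a2 (31.1 TPM; 3.002 and 3.51). Sall4 (112 TPM) had CTCF only, with fold 8.13 and 16.3. Nanog (461 TPM) and Prdm14 (18.6 TPM) had neither within 3 kb, although they were expressed.

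The genes for CTCF and its cohesin partners overlapped more often. Of 12, 5 had both kinds of locus and in all 5 the loci overlapped, beside 7.75% of protein-coding genes. The 12 genes had a median of 65.5 TPM, and 12.0% of protein-coding genes at 10 to 100 TPM had overlapping loci. At Ctcf itself (82.9 TPM) the CTCF fold was 14.03 and 18.2 and the ATAC fold 6.23 and 5.61. Smc3 (160 TPM), a core cohesin subunit, had 15.2 and 21.1 for CTCF and 5.40 and 8.18 for ATAC. The alternative cohesin subunits Stag1 (45.8 TPM) and Stag2 (48.0 TPM) had CTCF folds of 18.3 and 21.05 and of 13.9 and 26.5, and Pds5b (23.6 TPM), a cohesin regulator, 14.9 and 24.3. Rad21, Smc1a, Wapl and Mau2 had ATAC only, and Nipbl, Pds5a and the germline paralogue Ctcfl CTCF only.

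The 16 ribosomal protein genes that were listed, expressed at a median of 2719 TPM, had both kinds of locus in 5 of 16, again overlapping in all 5: Rps14, Rpl4, Rpl5, Rplp0 and Rpl13a. Other ribosomal protein genes were not counted. Their CTCF folds ranged from 9.81 at Rpl13a to 29.7 at Rpl5 in replicate 1 and from 10.1 at Rpl4 to 27.3 at Rpl5 in replicate 2, and their ATAC folds from 3.45 at Rps14 to 6.79 at Rpl4 and from 4.64 at Rpl13a to 6.90 at Rplp0. A further 6 had ATAC only, 3 CTCF only and 2 neither. Both kinds were thus at 31.2% of them, against 19.5% of protein-coding genes, and overlapping loci at the same 31.2% against 7.75%. Of protein-coding genes at 100 TPM or more, 33.5% had both kinds, near the share of the listed ribosomal genes, and 12.2% had overlapping loci. Ribosomal protein genes have many processed copies, so that reads and transcripts at these genes may be split among near-identical sequences.

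The clustered protocadherins, neuronal adhesion genes whose alternative promoters carry CTCF sites, were mostly bound by CTCF without an ATAC locus. Of 57 genes found, 47 had CTCF only, 1 both (Pcdhgc3, 15.3 TPM; CTCF 3.82 and 8.03, ATAC 4.37 and 5.59, no overlap), 1 ATAC only and 8 neither. With CTCF in 48 of 57 they stood far above the 32.0% of protein-coding genes, and with ATAC in 2 of 57 far below the 47.8%. Of protein-coding genes at 0 TPM, 8.43% had CTCF and 5.01% ATAC. Of those above 0 and under 1 TPM the shares were 30.1% and 27.9%. The median was 0.03 TPM and 19 were listed at 0. Within 3 kb of their starts lay 58 distinct CTCF loci and 2 distinct ATAC loci.

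Imprinted genes, expressed from 1 parental copy and often governed by CTCF, had both kinds of locus in 7 of 20, against 19.5% of protein-coding genes, with overlap in 2 of 20, against 7.75%. They ran from 0.17 to 351 TPM. Of protein-coding genes at 10 to 100 TPM, 32.2% had both kinds and 12.0% had overlapping loci. The overlaps were at Peg3 (38.4 TPM; CTCF 15.2 and 15.0, ATAC 4.49 and 3.5003) and Grb10 (85.8 TPM; CTCF 15.2 and 20.5). The others were Zim1, Impact, Gnas and the divergent pair Sgce and Peg10, which share their loci (CTCF 11.1 and 15.5, ATAC 5.25 and 5.23). Lineage transcription factors, at a median of 1.43 TPM with 10 of 20 at 1 TPM or more, had both in 2 of 20, with overlap at Sox17 (9.09 TPM; CTCF 7.72 and 15.0, ATAC 3.79 and 4.23) and none at Pax6 (5.10 TPM; 7.74 and 8.35, 8.34 and 7.88). ATAC marked 5 of 20 of these genes, below the 47.8% of protein-coding genes, and CTCF 7 of 20, near its 32.0%, and the 1 overlap in 20 was no more than the 7.75%. Of protein-coding genes above 0 and under 1 TPM, 27.9% had ATAC, and of those at 1 to 10 TPM 58.3%.

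Loci are named here by the nearest gene with a TPM. The strongest CTCF loci with ATAC near starts lay at Med4, a Mediator subunit, with CTCF folds of 33.5 and 36.3 and ATAC folds of 4.62 and 6.44, at Adck5 (30.4 and 35.05; 6.62 and 4.26) and at Rnf14 (30.6 and 29.5; 7.79 and 8.16). All 3 lay within 104 bp of a start and held the motif, and 0 of 86, 0 of 172 and 0 of 127 motif reads were methylated. With 0 methylated reads these counts allow shares of up to 3.49%, 1.74% and 2.36%, if every count is taken as a separate read. Reads were counted at each cytosine, so these limits may be too low. Farther from starts the strongest were beside Gm16025 (45.1 and 45.8; ATAC 10.1 and 7.41), in an intron 3426 bp from a start, Ccr1 (35.9 and 38.4; 4.07 and 4.26), 43162 bp away and intergenic, and Mrc1 (31.01 and 33.4; 5.26 and 6.62), in an intron 32997 bp away. At the Ccr1 locus 37 of 249 motif reads were methylated. Its 29-base motif run occurs at 2 places in the genome, and the effect of this on the reads was not tested. All 6 were also in the merged M-ATAC list, with folds of 3.38 to 16.3.

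Strong CTCF loci without ATAC reached as high. The strongest of all lay 55 bp from a start of 2610005L07Rik (29.8 TPM), with CTCF folds of 52.4 and 60.6, followed near starts by Rapgef1 (34.9 and 35.1; 24.3 TPM) and Olfr655 (31.6 and 38.4), an odorant receptor gene listed at 0 TPM. Farther away were loci nearest to Gm23215 (32.8 and 35.1), Acod1 (31.2 and 31.5) and Gm24187 (31.1 and 35.5). Of these 6 loci, 4 overlapped the merged M-ATAC list, with folds of 31.1 at 2610005L07Rik, 22.7 at Acod1, 14.6 at Gm23215 and 7.69 at Rapgef1, and those at Olfr655 and Gm24187 did not. The 29-base motif run at Gm23215 occurs at 2 places in the genome. The 29-base motif run at 2610005L07Rik occurs at 4 places in the genome, among them the ATAC locus with CTCF at Gm26853, and the effect of such copies on the folds was not tested. It reads as follows.
2610005L07Rik (chr8:20424866-20424884, - strand): tatagGGGCCACCAGAGGGCGCGAggcgg

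The ATAC loci with the highest fold included several without a CTCF motif match in the 200 bp around the ATAC summit of replicate 2. Parts of these loci, and of some CTCF loci that overlapped them, lay outside that window, so a motif there would be missed. With CTCF and near starts they were Kifap3 (ATAC 15.4 and 17.0; CTCF 10.1 and 18.9), Gm26853 (14.4 and 14.2; 16.5 and 28.7) and the fumarate hydratase gene Fh1 (13.4 and 15.9; 11.6 and 16.0), and only Gm26853 held a match. Farther from starts they were an exonic locus nearest to Lars2 (43.1 and 44.4; 22.2 and 30.9) and intronic loci nearest to Gphn (27.7 and 24.5; 11.4 and 7.05) and Myl12b (24.1 and 22.9; 5.68 and 9.57), none with a match. At Kifap3, Gm26853, Lars2 and Myl12b the best-scoring stretch of the window lay inside the overlapping CTCF locus, so the window did reach into it.

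Without CTCF, the highest ATAC locus lay 58 bp from a start of Gm13340 (40.1 and 39.0), a gene listed at 10030 TPM. Of its 31-base words, 63.6% also occur in the mitochondrial genome, and it was the only ATAC locus, and no CTCF locus was, in which 50% or more did. Gm26611 (16.6 and 17.0) and Cep128 (14.8 and 14.7) followed near starts. Away from starts the highest were at Gm42855 (16.1 and 16.0), Grik2 (15.5 and 15.1) and Gm13462 (14.9 and 16.1), near genes at 0, 0.09 and 0.02 TPM, and only the Grik2 window held a match, a sequence found at 76 places in the genome. All 6 were in the merged M-ATAC list, with folds of 22.3 to 29.3, and none was in the merged CTCF M-ChIP list.

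Of the other loci that the study displayed, Slc5a8, a solute carrier gene listed at 0 TPM, had a CTCF locus (13.7 and 19.4) 976 bp from a start and no ATAC locus there. ATAC loci lay within its introns, 6932 bp (6.70 and 8.66) and 25107 bp (10.1 and 11.7) from a start, without CTCF. At Pisd-ps1 (17.2 TPM) the strongest of 3 CTCF loci (13.0 and 20.1) spanned chr11:3123054-3123515, and the only ATAC locus (3.15 and 2.92) chr11:3123801-3124148, so that the nearest edges were close but apart.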

How the data were processed

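Peak lists of 2 CTCF-ChIP and 2 ATAC samples were used, with the other 10 sample lists and the merged tables as independent readouts. The authors trimmed reads with Trim Galore 0.4.4, aligned them to mm10 with Bowtie2 (Bismark 0.18.1 for converted libraries), removed duplicates and low-quality reads with SAMtools 1.3, and called peaks per sample with MACS2 at a shift of 0 and without a stated control. The deposited lists hold a fold enrichment ratio, -log10 p and q values (lowest -log10 q 2.00) and a rounded score for each summit. Deposited TPM values came from merged RNA-seq replicates. The authors' methylation tables hold counts of methylated and unmethylated reads, and the percent, per cytosine in merged M-ChIP motifs or M-ATAC peaks. Motif matches were deposited with a FIMO score and p-value. Reads are not in these files, so depth is not given.

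Summits of 1 region were reduced to the region with its highest fold. Overlaps, nearest starts (GENCODE M21) and windows were computed in Python 3 with pandas and numpy, checked on simulated regions with known answers. The motif matrix was built from the 43074 deposited matches, all of which were identical to the GRCm38 sequence at their coordinates. Genes within 3 kb of a start were classed by locus midpoints. Per-sample medians were compared by exact permutation over samples, since regions are not replicates. Named loci are the 3 near and the 3 away from starts with the highest fold in the lower replicate, per class. The members, classes and gene lists were chosen with earlier results of these data known. In the lists, 57 of 58 protocadherins and all members of the other lists had a TPM. Alternatives were the overlap rule, summit overlap, q limit, stretches called in both replicates, leaving out samples, pairing by replicate number, the merged M-ATAC list, promoter width, TPM filter and pseudocount, motif limit and coverage. KLF4 lists were not used.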

Additional observations from a re-analysis of the deposited data

How the results depend on the processing

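Over 12 results and 108 alternative values, 79 were counted as the same, 24 as moved and 5 as reversed. For the tested results (fold, width and promoter share), same meant only the same sign, whatever the size. For the overlap and motif shares it meant a shift smaller than the SD between samples. For TPM and motif methylation it meant a shift smaller than the SD between chromosomes. The cause was not tested. The share of CTCF regions with ATAC, 6.48%, was 2.40% with 50% reciprocal overlap, 5.62% with overlap by summit, 4.12% with -log10 q of at least 5, 5.77% with stretches called in both replicates, 22.4% with the merged M-ATAC list, and 6.37% to 10.2% leaving out a sample, highest without ATAC replicate 1. The share of ATAC regions with CTCF, 11.7%, was 5.28%, 9.37%, 10.3% and 10.7% under the first 4 of these, and 11.5% to 14.4% leaving out a sample. The log2 TPM difference for CTCF, 2.51, was 1.81 with reciprocal overlap, 1.304 with the merged M-ATAC list, 0.13 for genes of at least 1 TPM and 4.15 with a pseudocount of 0.1, and 1.76 to 2.64 leaving out a sample. For ATAC it was 0.65 and reversed to -0.11 for genes of at least 1 TPM and to -0.10 for promoter regions only. The ATAC width difference of 23.0 bp reversed to -56.5 bp with reciprocal overlap and ran from -16.0 bp (without ATAC replicate 1) through -2.5 bp (without ATAC replicate 2) to 39.8 bp leaving out a sample. The motif share difference was -23.3 points at the 25th percentile limit, and the motif methylation difference of 10.3 points was 7.75 at a coverage of 10 reads or more. Replicate numbers are shared between the assays, but no label says that a number marks a shared culture. With the replicate block, CTCF replicate 1 set against ATAC replicate 1 and 2 against 2, the CTCF share was 6.15% and the fold difference 1.63 (exact sign-flip test, p = 0.5, the smallest for 2 pairs), and no direction changed.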

Other observations

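Methylation within ATAC loci was read from the merged M-ATAC table, a readout of other libraries with no replicates. Reads were again counted at each cytosine. Away from promoters, ATAC loci with CTCF had 2.88% methylated reads (5235 of 181947, 13187 cytosines with at least 5 reads) and those without CTCF 5.64% (46971 of 832654, 61087 cytosines). Near promoters the shares were 0.490% over 97377 cytosines and 0.457% over 518971 cytosines. By chromosome, the share away from promoters ran from 1.45% to 4.85% with CTCF and from 2.86% to 7.58% without.

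Where M-ATAC covered CTCF loci that lacked a Nextera ATAC overlap, 4.86% of 423470 reads were methylated, against 0.946% of 962456 reads in CTCF loci with it. Of the ATAC loci without CTCF, 0.873% overlapped the merged CTCF M-ChIP list, against 88.5% of those with CTCF, while 98.9% and 97.4% of these classes overlapped the merged M-ATAC list.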
